A study of Mus musculus with 6 samples.

Results

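Prss56, Mfrp and Crb1 are genes in which inherited defects alter the size of the eye or the order of the retina. They were picked by name from a table of read counts for 701 genes, so they make up 3 of the 701, and they were picked because this table lists them as different between the genotypes compared here. Bulk RNA-seq was done on the peripheral ventrotemporal (VT) retina, the crescent of retina from which most uncrossed axons of the mouse optic nerve arise. The tissue came from WT mice and from mice without a working serotonin transporter (SERT) gene in any cell (Slc6a4-/-), 24 hours after the optic nerve of the left eye was crushed (optic nerve crush, ONC). Each genotype had 3 samples. A sample combined VT retinae from 3 mice of 8 weeks (postnatal day 56), and errors given below are therefore errors between pools of mice. Each standard error was also drawn towards the spread of the other genes of the table. For the 3 genes this made it smaller than their own spread between pools alone gives. The labels give the strain as C57BL/6 for both genotypes without a substrain. The authors name the WT mice as C57BL/6J and state no substrain for the mutants. The mutants were a separately purchased line, so genotype and line cannot be told apart. Both groups carried the injury and no uninjured retina was analysed here, so the values describe the injured retina of each genotype and not the response to the crush.

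The 3 genes act in different cells of the eye. PRSS56 is a secreted serine protease made by Müller glia, the radial glia that span the retina. MFRP is a membrane protein with a frizzled-related domain, made by the retinal pigment epithelium (RPE) and the ciliary epithelium. Loss of either gives small, hyperopic eyes in people. CRB1 belongs to the Crumbs family of cell polarity proteins, sits beside the adherens junctions of the outer limiting membrane where Müller glia meet photoreceptors, and is mutated in Leber congenital amaurosis and retinitis pigmentosa, in some families together with a small eye.

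The transporter gene itself was read as a check of the labels. Slc6a4 had 1516, 1397 and 1548 reads in the WT samples, against 0, 0 and 3 reads in the Slc6a4-/- samples. The library totals, recovered from the authors' mean RPKM as described below, lay between 75.5 M and 94.0 M reads. The authors state a lower number of reads per sample, and this difference was not examined. A scaled count below is the read count of a gene divided by the size factor of its library, which lay between 0.911 and 1.14. The authors kept only genes that passed a p-value threshold in these samples, so the background is already selected. They kept a small share of all transcripts, and that share is not set beside the gene lists used below. How many genes of a list are in the table is therefore not read as few or many. Of the 701 genes, 397 were higher and 304 were lower in Slc6a4-/-, and the median log2 difference was 0.30. The WT and Slc6a4-/- samples did not overlap for 58.9% of the 701 genes, and 42.5% differed by more than 1.5-fold between the genotypes.

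Among the 3 genes, Prss56 and Mfrp were higher and Crb1 was lower in Slc6a4-/- than in WT. The difference was 3.83-fold for Prss56, 1.64-fold for Mfrp and 1.98-fold for Crb1 in the ratio of the means. All 3 genes were past 1.5-fold, as were 30.8% of the table in the direction of Prss56 and Mfrp and 11.7% in that of Crb1. For Prss56 and Crb1 the genotypes did not overlap, as for 35.2% of the table with Slc6a4-/- higher and 23.7% with Slc6a4-/- lower. Because the genes were chosen from this comparison, the differences are described with their standard errors and no test is given.

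The start regions of the 3 genes are shown so that the 2 genes higher and the 1 gene lower in Slc6a4-/- can be set side by side. Each window holds 250 bases before and 50 bases after the RefSeq start on GRCm38.p6, read 5′ to 3′ on the strand of the gene. Only 1 start is shown for each gene, although annotated coding transcripts begin at 4 starts for Mfrp and 3 for Crb1. Capitals mark matches to 3 kinds of motif that were searched on both strands: a TATA box (TATAAA or TATATA), the core bound by the photoreceptor and RPE factors CRX and OTX2 (TAATCC), and the E-box of the pigment cell factor MITF (CACGTG or CATGTG). The windows are chr1:87183064-87183363 on the plus strand for Prss56, chr9:44101520-44101819 on the plus strand for Mfrp and chr1:139377027-139377326 on the minus strand for Crb1.
Prss56: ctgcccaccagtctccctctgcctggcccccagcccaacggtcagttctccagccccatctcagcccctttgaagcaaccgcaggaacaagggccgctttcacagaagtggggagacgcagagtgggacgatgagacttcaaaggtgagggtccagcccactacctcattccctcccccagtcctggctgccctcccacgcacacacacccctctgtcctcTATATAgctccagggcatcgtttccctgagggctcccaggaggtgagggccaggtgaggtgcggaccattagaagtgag
Mfrp: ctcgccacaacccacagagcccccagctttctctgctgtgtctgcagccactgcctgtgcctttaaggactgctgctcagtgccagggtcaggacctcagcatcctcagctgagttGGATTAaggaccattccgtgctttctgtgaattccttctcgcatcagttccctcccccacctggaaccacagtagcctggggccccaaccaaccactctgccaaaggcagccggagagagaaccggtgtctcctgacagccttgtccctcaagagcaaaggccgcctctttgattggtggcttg
Crb1: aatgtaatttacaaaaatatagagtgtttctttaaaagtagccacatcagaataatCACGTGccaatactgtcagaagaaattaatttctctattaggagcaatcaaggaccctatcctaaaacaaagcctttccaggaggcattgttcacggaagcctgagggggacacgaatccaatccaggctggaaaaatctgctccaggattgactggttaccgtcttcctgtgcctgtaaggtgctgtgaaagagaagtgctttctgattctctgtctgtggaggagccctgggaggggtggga
Each window held a match to 1 of the 3 kinds, and no kind was shared between the genes. Prss56 had TATATA from -29 to -24, counted from the start. Mfrp had GGATTA, the CRX and OTX core read on the other strand, from -134 to -129. Crb1 had CACGTG from -194 to -189. Over all 32851 windows of this length in the mouse RefSeq set, 17.1% held a TATA box, 7.06% the CRX and OTX core and 20.4% the MITF E-box. Of the exact letters found, TATATA was in 5.67% of the windows and CACGTG in 7.15%. These shares are for a match at any place in a window, and shares at the places found here were not counted. GC content was 61.7% for Prss56, 58.0% for Mfrp and 44.3% for Crb1, with a median of 52.7% over all windows. A match is a description of the letters and not a bound site.

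Prss56 (ENSMUSG00000036480) lies on chromosome 1 at 87183313-87188405 of GRCm38, on the plus strand, with 1 annotated transcript and 2180 exon bases. No other gene of the annotation overlapped it. Samples 1, 2 and 3 gave 138, 128 and 84 reads of Prss56 for WT and 354, 555 and 592 reads for Slc6a4-/-. After scaling these were 151, 134 and 88.2 in WT and 312, 514 and 604 in Slc6a4-/-. All 3 mutant samples were above all 3 WT samples, and the lowest mutant sample was 2.06 times the highest WT sample. WT averaged a scaled count of 124 ± 32.6 (SD, n = 3) against 477 ± 149.6 (SD, n = 3) for Slc6a4-/-, a log2 difference of 1.91 (SE 0.31). Only 18 genes of the table had a greater log2 rise, so Prss56 ranked 19 among the 397 rises, although it ranked only 394 of 701 by mean scaled count, which also grows with the length of a gene.

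**Figure D1:**
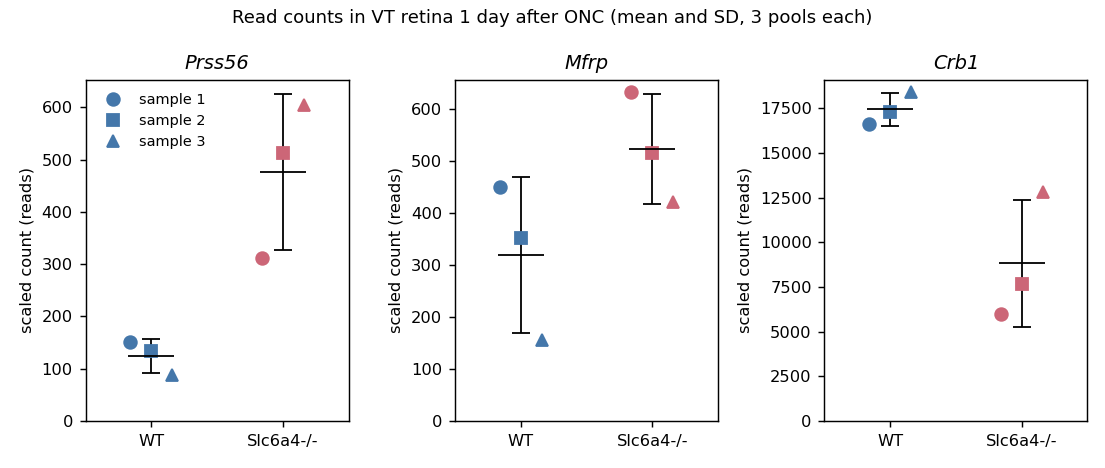
Scaled read counts (y axis, linear and starting at 0, a separate scale for each gene) of Prss56, Mfrp and Crb1 in the 3 WT (blue) and 3 Slc6a4-/- (red) samples. Points are pools (circles, squares and triangles for samples 1, 2 and 3) and black lines are means with SD; the genotypes are apart for Prss56 and Crb1, while for Mfrp the WT sample at 451 sits above the Slc6a4-/- sample at 422.

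Mfrp (ENSMUSG00000034739) lies on chromosome 9 at 44101729-44109187, on the plus strand, with 6 annotated transcripts and 4334 exon bases. Its read counts were 411, 337 and 149 in WT and 719, 558 and 414 in Slc6a4-/-. Scaled, they were 451, 351 and 157 in WT and 633, 517 and 422 in Slc6a4-/-. The genotypes overlapped, since WT sample 1 was above Slc6a4-/- sample 3, and WT sample 3 stood far below the other two WT samples. WT averaged 319.6 ± 149.8 (SD, n = 3) against 524 ± 106 (SD, n = 3) scaled counts for Slc6a4-/-, a log2 difference of 0.82 (SE 0.39). Without WT sample 3 the log2 difference was 0.38 (SE 0.21), and without WT sample 1 it was 1.14 (SE 0.36). Thus Mfrp was higher in Slc6a4-/- under each sample left out, but its size rested on WT sample 3. It ranked 146 among the rises.

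The reads of Mfrp share their exons with other genes. C1qtnf5, which encodes a secreted partner of MFRP and is transcribed from the same locus, has all 1589 of its exon bases inside those of Mfrp on the same strand. On the other strand, Gm20444 has 648 and Rnf26 has 54 exon bases in common with Mfrp. None of these 3 genes is among the 701, and which strand setting was used for counting is not given in the sources used here. Reads of Mfrp and of these neighbours therefore cannot be told apart in part of the gene.

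Crb1 (ENSMUSG00000063681) lies on chromosome 1 at 139197056-139377100, on the minus strand, and spans 180045 bases. It has 7 annotated transcripts, of which 3 code for protein and begin at 3 different starts, and a count per gene sums over them. Its read counts were 15152, 16564 and 17553 in WT and 6777, 8286 and 12551 in Slc6a4-/-. Scaled, they were 16625, 17273 and 18435 in WT and 5970, 7671 and 12807 in Slc6a4-/-. Every WT sample was above every mutant sample, by 1.30 times between the nearest pair, and Slc6a4-/- sample 3 stood closest to WT. WT averaged 17444 ± 917 (SD, n = 3) against 8816 ± 3559 (SD, n = 3) scaled counts for Slc6a4-/-, a log2 difference of -1.06 (SE 0.26). Crb1 was the gene with rank 8 of 701 by mean scaled count, and rank 38 among the 304 falls.

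**Figure D2:**
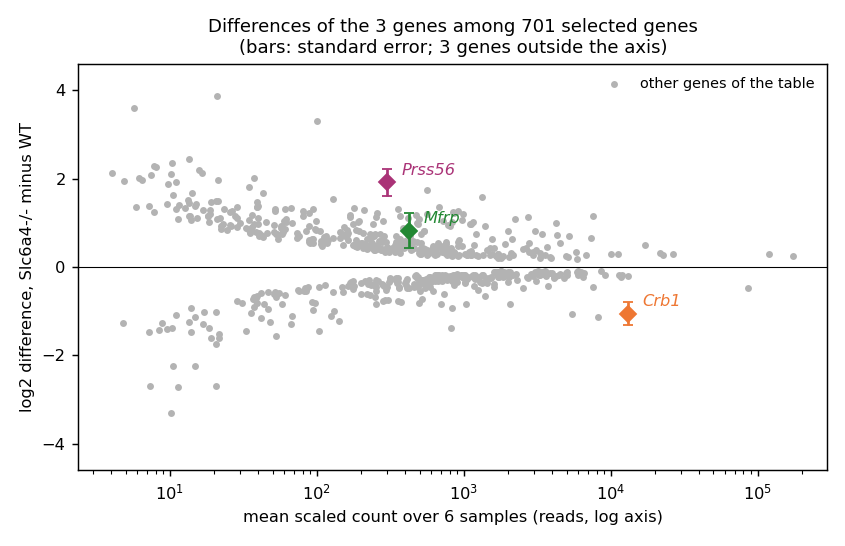
Log2 difference between genotypes (y axis, Slc6a4-/- minus WT) against the mean scaled count over 6 samples (x axis, log scale) for the genes of the table, in grey, with Prss56, Mfrp and Crb1 as coloured diamonds and bars of 1 SE. The gap around 0 comes from the selection of the genes at a p-value threshold, and Crb1, at -1.06, is among the genes with the most reads.

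Per length of transcript the order of the 3 genes was clear for Crb1 only. In RPKM, the reads of a gene divided by its exon length and by the reads of the library, Crb1 was at 24.3 ± 1.28 (SD, n = 3) in WT and 12.3 ± 4.95 in Slc6a4-/-. Prss56 was at 0.689 ± 0.18 in WT and 2.64 ± 0.829 in Slc6a4-/-, and Mfrp was at 0.89 ± 0.417 in WT and 1.46 ± 0.294 in Slc6a4-/-. Crb1 was above both other genes in all 6 samples. Between Prss56 and Mfrp, Mfrp had the higher mean RPKM in WT and Prss56 the higher mean RPKM in Slc6a4-/-, and in each genotype the samples of these 2 genes overlapped. The exon lengths implied by the authors' mean RPKM were 2180 bases for Prss56 and 4334 bases for Mfrp, as annotated. For Crb1 the implied length was 8674 bases where the annotation counts 14432, so the RPKM of Crb1 rests on the shorter length.

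The spread within a genotype differed between the 3 genes. For Crb1 the WT samples were tight, with a coefficient of variation of 5.26%, and the mutant samples were loose at 40.4%. For Mfrp it was the reverse, at 46.9% in WT and 20.2% in Slc6a4-/-, and for Prss56 it was 26.2% and 31.4%. These spreads were wider than counting alone gives. The SD within genotypes on the log2 scale was 0.45 for Prss56, 0.60 for Mfrp and 0.40 for Crb1, where counting error would give 0.11, 0.08 and 0.01. Of the 100 genes of the table nearest in mean log2 scaled count, 21 had a larger SD than Prss56, 7 a larger SD than Mfrp and 11 a larger SD than Crb1. The median SD of these 100 genes was 0.25, 0.24 and 0.13.

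The samples that stood apart were not the same for the 3 genes. Both Prss56 and Mfrp were lowest in WT sample 3, by 0.46 and 0.89 log2 units below the WT mean, while Crb1 was highest there, by 0.08. Among the mutants, Prss56 and Crb1 were both lowest in Slc6a4-/- sample 1, by 0.56 and 0.49 log2 units below the mutant mean, and both highest in sample 3. Mfrp was highest in Slc6a4-/- sample 1, by 0.29, and lowest in sample 3, by 0.29. The 2 genes that were higher in the mutant therefore varied in opposite order among the mutant samples.

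Ratios of 2 genes within a library do not depend on the scaling. Since Crb1 was lower and the other 2 genes were higher in Slc6a4-/-, a ratio of Crb1 to either had to widen the difference. The values are given as a description. There were 110, 129 and 209 reads of Crb1 for each read of Prss56 in the WT samples, and 19.1, 14.9 and 21.2 in the Slc6a4-/- samples. This ratio was 149 ± 52.5 (SD, n = 3) in WT and 18.4 ± 3.20 in Slc6a4-/-, and the genotypes were far apart. The ratio of Crb1 to Mfrp was 36.9, 49.2 and 118 in WT and 9.43, 14.9 and 30.3 in Slc6a4-/-, also without overlap. The ratio of Prss56 to Mfrp was 0.336, 0.38 and 0.564 in WT and 0.492, 0.995 and 1.43 in Slc6a4-/-, and here the lowest mutant sample lay below the highest WT sample.

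Mfrp is a gene of the RPE and ciliary epithelium, cells that adjoin the peripheral retina and can come along in its dissection, so marker genes of both were set beside it. In bulk tissue, fewer cells of a type and less RNA per cell cannot be told apart. Of 23 RPE marker genes, 9 are in the table, and all 9 were higher in Slc6a4-/-, against 56.6% of all genes of the table. Their median log2 difference was 0.76, against 0.30 over all genes, 8 of 9 were more than 1.5-fold higher (30.8% of the table) and 6 of 9 had no overlap in this direction (35.2% of the table). Among them, the melanosome genes Mlana, Pmel, Dct and Tyrp1 had log2 differences of 1.37 (SE 0.55), 1.11 (SE 0.38), 1.06 (SE 0.49) and 1.00 (SE 0.43). Kcnj13, a potassium channel of the RPE, was at 0.76 (SE 0.34), and Slc6a20a, a proline transporter, was at 0.73 (SE 0.28). Rpe65, Rlbp1, Best1 and Ttr, the markers by which RPE is usually recognised, are not among the 701 genes and were not analysed here, and none of the 9 was at 0 in any sample.

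Ciliary epithelium markers were likewise higher. Of 22 such genes 13 are in the table, and all 13 were higher in Slc6a4-/-, with a median log2 difference of 0.74. Of the 13, 8 were more than 1.5-fold higher (30.8% of the table), while 4 had no overlap, a share no larger than the 35.2% of the table. Best2, a chloride channel of the non-pigmented ciliary epithelium, was at 1.53 (SE 0.69), and Optc, which encodes the vitreous protein opticin made there, was at 1.21 (SE 0.61). Gja1, a gap junction protein, was at 1.20 (SE 0.57), Wfdc1 at 1.04 (SE 0.40) and Ltbp2, a microfibril protein, at 0.97 (SE 0.49). The summed scaled counts of the 13 genes were 31493, 20137 and 11291 in WT and 37923, 31209 and 30454 in Slc6a4-/-, and those of the 9 RPE genes were 3422, 2620 and 1526 in WT and 4961, 5183 and 3298 in Slc6a4-/-. Both sums were lowest in WT sample 3, where Mfrp and Prss56 were also lowest, and both overlapped between the genotypes. Without WT sample 3 the median log2 difference was 0.51 for the RPE markers, with 3 of 9 past 1.5-fold, and 0.39 for the ciliary markers, with 2 of 13 past 1.5-fold. At that setting 20.7% of all genes were over 1.5-fold higher, so the ciliary count was then no larger than the share of the table, and the median over all genes was 0.27.

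**Figure D3:**
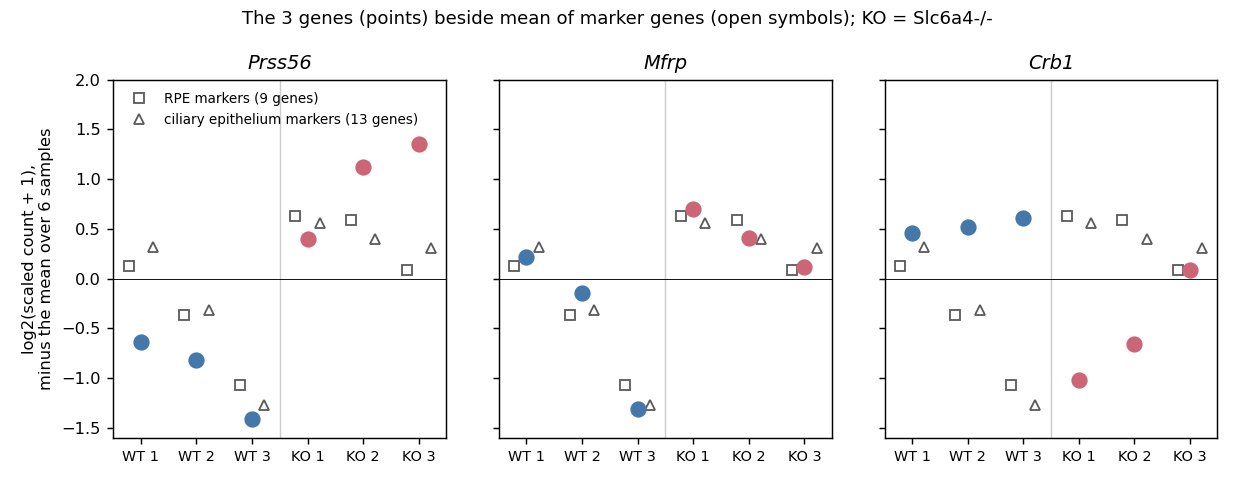
Log2(scaled count + 1) minus its mean over the 6 samples (y axis) for Prss56, Mfrp and Crb1 (filled points, blue WT, red Slc6a4-/-) in each sample (x axis, KO for Slc6a4-/-), with the mean of 9 RPE marker genes (open squares) and of 13 ciliary epithelium marker genes (open triangles). Mfrp lies near both marker means in all 6 samples, Prss56 lies below them in WT and above them in Slc6a4-/- samples 2 and 3, and Crb1 lies above them in WT and below or at them in Slc6a4-/-.

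Counted against these markers within each library, the 3 genes parted. Per 1000 reads of the 9 RPE markers there were 132, 134 and 103 reads of Mfrp in WT and 128, 99.7 and 128 in Slc6a4-/-. On average this was 123 ± 17.6 for WT against 118 ± 16.3 for Slc6a4-/- (SD, n = 3 each), a ratio of 0.965, and the genotypes overlapped. Against the 13 ciliary markers Mfrp stood at 15.2 ± 1.96 in WT and 15.7 ± 1.59 in Slc6a4-/-, a ratio of 1.03. There were also 2.13, 2.06 and 1.80 reads of Mfrp per read of Kcnj13 in WT, and 2.12, 2.44 and 1.72 in Slc6a4-/-. So the 1.64-fold difference of Mfrp was matched in size by that of the marker genes in the table, and their part in it was not tested. These markers all passed the authors' p-value threshold and were all higher in Slc6a4-/-. Counting against them therefore had to narrow the difference of a higher gene, and markers that did not pass could not enter.

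Prss56 remained apart on the same count. Per 1000 RPE marker reads there were 44.2, 51.0 and 57.8 reads of Prss56 in WT and 62.9, 99.1 and 183 in Slc6a4-/-, with no overlap and a ratio of the means of 2.26. Per 1000 ciliary marker reads the values were 4.81, 6.63 and 7.81 in WT and 8.22, 16.5 and 19.8 in Slc6a4-/-, a ratio of 2.31. The nearest samples of the genotypes, at 57.8 and 62.9 against RPE and at 7.81 and 8.22 against ciliary markers, were close. These ratios were below the 3.83-fold difference of Prss56 itself, as counting against markers that were all higher had to make them.

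For Crb1, which was lower while all these markers were higher, counting against them had to widen the difference, and the values are given as a description. Per 1000 RPE marker reads there were 4858, 6594 and 12081 reads of Crb1 in WT and 1203, 1480 and 3883 in Slc6a4-/-, a WT mean 3.58 times that of the mutant. Per 1000 ciliary marker reads the WT mean was 3.66 times that of the mutant.

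**Figure D4:**
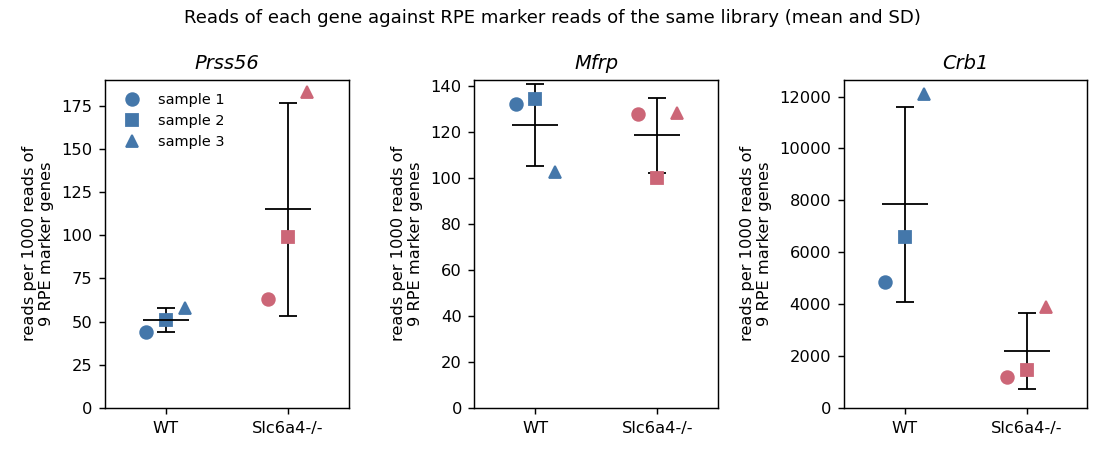
Reads of Prss56, Mfrp and Crb1 per 1000 reads of 9 RPE marker genes in the same library (y axes, linear from 0, a separate scale for each gene) for WT (blue) and Slc6a4-/- (red), with mean and SD of 3 pools each and circles, squares and triangles for samples 1, 2 and 3. Mfrp is at 123 in WT and 118 in Slc6a4-/-, while Prss56 and Crb1 keep the genotypes apart.

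Müller glia and photoreceptors, the cells that make PRSS56 and CRB1, gave no such common direction. Of 21 Müller glia markers 4 are in the table, 2 higher and 2 lower in Slc6a4-/-, with a median log2 difference of 0.04 (without scaling, Spc25 changed sign and 3 were higher). Gfap, the intermediate filament of reactive glia, was at -0.39 (SE 0.14), the secreted protein gene Dkk3 was at 0.30 (SE 0.11), the peroxiredoxin gene Prdx6 at 0.24 (SE 0.15) and Spc25 at -0.17 (SE 0.12). Most reads of these 4 genes were of Dkk3. Their summed scaled counts were 36525, 32895 and 31420 in WT and 36942, 43352 and 37103 in Slc6a4-/-. Counting against them therefore had to narrow the difference of Prss56 and widen that of Crb1. Per 1000 reads of these 4 genes the mutant mean of Prss56 was 3.32 times the WT mean. On the same count Crb1 stood at 455, 525 and 587 in WT and 162, 177 and 345 in Slc6a4-/-, again without overlap.

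Of 28 photoreceptor markers 5 are in the table, 2 higher and 3 lower, with a median log2 difference of -0.20. Opn1sw, the short-wavelength cone opsin of the ventral retina, was at -1.13 (SE 0.39), with scaled counts of 5686, 16686 and 12264 in WT and 4579, 3912 and 6177 in Slc6a4-/-. Opn1mw, the other cone opsin, was at 0.39 (SE 0.18). Gngt1, a rod transducin subunit, was at 0.31 (SE 0.18), Fscn2, an actin bundler of outer segments, at -0.24 (SE 0.17) and Pde6c, the cone phosphodiesterase, at -0.20 (SE 0.09). Per 1000 reads of the 5 markers Crb1 was at 447, 369 and 426 in WT and 177, 157 and 329 in Slc6a4-/-, and the WT mean was 1.87 times that of the mutant. Opn1sw and Crb1 differed in pattern, since WT sample 1 was low for Opn1sw and overlapped the mutants, while WT was tight for Crb1.

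Other genes of eye growth were looked up in the table. Of 32 further genes linked to small eyes, 4 are among the 701 and all 4 were higher in Slc6a4-/-, with 3 of them free of overlap, against 56.6% of the table higher and 35.2% free of overlap in this direction. So few genes show no direction of the list. Kcnj13 is also counted among the RPE markers and among the genes of inherited retinal disease, so these lists are not separate. Kcnj13 had scaled counts of 211.8, 171 and 87.2 in WT and 299.5, 212.0 and 246 in Slc6a4-/-, so that its lowest mutant sample was barely above its highest WT sample. Bmp4 and Bmp7, ligands of the BMP family that pattern the eye, had log2 differences of 0.60 (SE 0.24) and 0.47 (SE 0.25), and Naa10, an amino-terminal acetyltransferase, was at 0.35 (SE 0.14). Kcnj13, Bmp4 and Bmp7 were lowest in WT sample 3, as Prss56 and Mfrp were. Crb1 was thus the only lower gene among the 7 small eye genes of the table.

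The partners of CRB1 were looked up in the same way, and their number in the table is not read as a result. Of 27 other genes of the Crumbs, PAR and Scribble polarity complexes, 1 is among the 701. This was Llgl2, a cell polarity scaffold, with 3225, 2974 and 3238 scaled counts in WT and 2441, 2753 and 3014 in Slc6a4-/-, a log2 difference of -0.21 (SE 0.10) with overlap. Of 75 other genes of inherited retinal disease, 14 are in the table, 7 higher and 7 lower, and the median log2 difference was 0.02. Slc38a8, an amino acid transporter mutated in foveal hypoplasia, was at 1.98 (SE 0.74), from scaled counts of 23.0, 6.26 and 2.10 in WT and 28.2, 41.7 and 25.5 in Slc6a4-/-. Efemp1, an extracellular matrix gene, was at 0.63 (SE 0.29), Lrat, an enzyme of the visual cycle, at 0.50 (SE 0.19) and Pdzd7, a gene of Usher syndrome, at -0.51 (SE 0.24). Crb1 and Opn1sw had the lowest log2 differences of this list.

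The genes whose profile over the 6 samples was most like that of each gene were found by the root-mean-square distance between centred log2 values, over 573 genes with a mean of at least 50 scaled counts. Mfrp had close neighbours. Mgst1, a glutathione transferase, was at 0.10 log2 units, Dio3, the deiodinase that inactivates thyroid hormone, at 0.12, Tyrp1, a melanin enzyme, at 0.12, Nkd2, a Wnt pathway inhibitor, at 0.12, and Mme, the peptidase neprilysin, at 0.15, where the median gene was at 0.63. Mgst1 had scaled counts of 416, 302 and 145 in WT and 533, 497 and 438 in Slc6a4-/-. As for Mfrp, WT sample 3 was the lowest of the 6 and WT sample 2 the next.

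Prss56 had no neighbour as close. Zfp541, a zinc finger gene, was the nearest at 0.50 log2 units, followed by Ism2 at 0.51, Dynlt1b at 0.52, Scel at 0.55 and Gm3435 at 0.55, where the median gene was at 0.90. Zfp541 had scaled counts of 75.7, 64.7 and 53.6 in WT and 115, 150 and 134 in Slc6a4-/-. These 5 genes had log2 differences between 0.93 and 1.32, smaller than that of Prss56, so the distance reflects the size of the difference as well as its shape. Dynlt1b has near-identical copies on chromosome 17, and its count is uncertain.

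Crb1 was nearest to Col26a1, a collagen gene, at 0.16 log2 units, followed by Tpgs1, a subunit of tubulin polyglutamylase, at 0.19, the histone genes H4c11 at 0.20 and H4c8 at 0.20, and Pcsk1n, the proSAAS gene, at 0.21, where the median gene was at 0.76. Col26a1 had scaled counts of 97.7, 128 and 148 in WT and 48.5, 54.6 and 88.8 in Slc6a4-/-. In all 5 genes, as in Crb1, Slc6a4-/- sample 3 was the highest mutant sample. There Tpgs1 at 352, H4c11 at 292, H4c8 at 2385 and Pcsk1n at 461 were above their lowest WT sample, which Crb1 and Col26a1 were not. Histone H4 genes are near-identical copies of each other, so their separate counts are uncertain.

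Position did not set the 3 genes beside the targeted transporter gene, since Slc6a4 lies on chromosome 11. The gene of the table next to Prss56 was Kcnj13, 0.198 megabases further along chromosome 1, and both were higher in Slc6a4-/-. On the other side Pde6d, 0.601 megabases away, had a log2 difference of -0.24 (SE 0.11). Next to Mfrp on chromosome 9 was Usp2, 0.006 megabases away, at -0.17, opposite in direction to Mfrp. The nearest genes of the table to Crb1, Timm17a and Fam129a, were 3.88 and 12.2 megabases away.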

How the data were processed

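RNA-seq of 3 WT and 3 Slc6a4-/- samples was analysed, grouped by the labels. The authors made rRNA-reduced stranded total RNA libraries, aligned the reads to GRCm38 and used the CLC Genomics workbench for counting reads by gene. The authors deposited raw whole-number counts of 701 genes that passed a p-value threshold in these samples, and for each gene a deposited RPKM, averaged over the genotype in which it was higher. The deposited table also holds a fold change, a log2 fold change and p-values of the authors' own comparison, which were not used. Digit separators were removed and 25 blank lines skipped, and 0 sample columns stayed unused.

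Library totals were recovered from the deposited RPKM and the exon lengths of GENCODE M21, which held all 701 identifiers. Of 168 candidate genes per genotype with an RPKM over 2, those within 1% of the commonest total (82 in WT, 64 in Slc6a4-/-) were kept and 78 and 62 were fitted, with median residuals of 0.0444% and 0.0646%. The recovery and the limma step were tested on simulated data. Counts were divided by totals relative to their geometric mean. Log2 differences and standard errors came from R 4.3.3 and limma 3.58.1, whose lmFit and trended eBayes were applied to log2(scaled count + 1) over all 701 genes, and genotype was the only term. The eBayes step drew the SE of each gene towards the trend of these preselected genes, so the SE of each member is smaller than its own SD gives. The edgeR count test was not fitted, because the whole library is not in the table and the counts as written were not accepted as counts. No p-value is given, since the members were chosen from this comparison, and a count of called genes is set against its share in the table. Counting error is small at 75.5 M to 94.0 M reads per library.

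The 3 genes and all gene lists were chosen with earlier results of these data known. Named genes are the 3 members, for each the 5 genes with the nearest profile, up to 6 genes of each list by absolute log2 difference, and Slc6a4. A gene that this rule names is not reported here. Chromosomal neighbours and overlapping genes are named for position only. Replicate columns were compared, and between 8 and 11 of 701 genes had equal counts in a pair, so all 6 libraries were used as separate samples. Promoters are from RefSeq on GRCm38.p6.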

Additional observations from a re-analysis of the deposited data

How the results depend on the processing

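The direction of all 3 genes was the same under every alternative run: no scaling, scaling by the sum over the table, median-of-ratios scaling, a pseudocount of 0.5 or 10, a replicate block, and each sample left out in turn. Across the scalings and pseudocounts the log2 difference ran from 1.84 to 2.09 for Prss56, from 0.75 to 1.00 for Mfrp and from -1.13 to -0.88 for Crb1. Without scaling the genotypes no longer overlapped for Mfrp, and the median of all genes moved from 0.30 to 0.48. Leaving out 1 sample gave 1.68 to 2.19 for Prss56, 0.38 to 1.14 for Mfrp and -1.37 to -0.81 for Crb1, and over all genes 438 to 582 without overlap, 145 to 248 genes over 1.5-fold higher and 66 to 97 over 1.5-fold lower. With fewer samples, lack of overlap is easier to reach. With only the 574 genes of at least 50 scaled counts on average, 131 genes were over 1.5-fold higher and 41 lower, in place of 216 and 82. Both were also smaller shares of the genes that entered.

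With replicate number as a block, the log2 differences stayed at 1.91, 0.82 and -1.06 and the SE was 0.32, 0.22 and 0.19. The deviations of same-numbered samples correlated at 0.44, -0.14 and 0.22 over 574 genes, so the numbers were not taken to pair the samples. The lists were also recomputed without each sample, an alternative chosen after seeing the data. The medians nearest 0 changed sign, to -0.10 for the Müller glia list without Slc6a4-/- sample 2 and to -0.01 for the inherited retinal disease list without Slc6a4-/- sample 3. The table is preselected, so levels of the other genes of these pathways were not analysed here. Depth does not limit the 3 genes, as the lowest count was 84 reads. The spread between 3 pools does.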
